A study of Schizosaccharomyces pombe with 2 samples.

Results

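The genes described are those of the Ssn6-Tup corepressor of fission yeast, Schizosaccharomyces pombe, and of regulators that act with it or on the same promoters. The members were named by their known roles, with earlier results of these data known, and no threshold on a value was used. The set names 7 genes: the corepressor subunits ssn6, tup11 and tup12, the glucose repressor scr1, the activator rst2, and the histone deacetylase genes clr3 and clr6. Of these, 6 had a probe, each with 2 spots on an array, which gives 12 of the 11520 spots. No probe carried either name of tup12.

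Wild-type cells with pDUAL-Ssn6, a plasmid for expression of Ssn6, were compared with wild-type cells that held pDUAL-EMPTY. Both were grown in MM-URA, minimal medium without uracil that selects for the plasmids, at 30 °C in logarithmic phase, and total RNA was hybridised to 2 spotted cDNA arrays. The sample titles read Ssn6 Overexpression, so ssn6 is the gene that the design was meant to raise. No source used here gives the promoter or copy number of the plasmid or the amount of Ssn6 protein. The labels give Ssn6 RNA Cy3 on array 1 and Cy5 on array 2, with the empty-plasmid RNA in the other dye, but the file headers name only channel A and channel B. All ratios are therefore channel B over channel A, and no sign was turned. If channel A held one dye throughout, the labelled dye swap would give opposite signs on the arrays, but over all genes tested their log2 ratios correlated with r = 0.805. Which culture a channel holds is thus not settled, and higher or lower refers to channels. The submitters mention independent RNA preparations but no separate cultures, so the spread between the 2 arrays may be technical. The p-values and intervals from limma do not rest on a gene's own spread alone. In limma each gene's variance was moderated by the variances of all genes tested, with a weight of 7.20 prior degrees of freedom. For clr6 the SD over the arrays was 0.037, but the standard error behind its p-value was 0.159.

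Ssn6 is a tetratricopeptide-repeat protein and Tup11 and Tup12 are related WD-repeat proteins. Together they form a corepressor that has no DNA-binding domain of its own and is brought to promoters by sequence-specific factors. Scr1 is a zinc-finger repressor of glucose-repressed genes, related to Mig1 of budding yeast. Rst2 is a zinc-finger activator of several of the same genes, and protein kinase A holds it in check when glucose is present. Clr3 and Clr6 remove acetyl groups from histones in silent chromatin and at many promoters.

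The arrays had signal in both channels on 9749 and 9942 of 9962 gene spots, and median gene signals of 83057 in channel B and 77100 in channel A on array 1, and of 90458 in channel B and 76965.5 in channel A on array 2. The 95th percentile of the negative spots (empty, buffer and E. coli spots, those without signal counting as 0) was 19925 in channel B and 14253 in channel A on array 1, and 17656 in channel B and 17669 in channel A on array 2. Signals of different probes are not comparable as transcript levels. One fault of array 1 touches a gene of the set. Each of the 48 blocks was compared between the arrays by the correlation of log2 channel A signals over its spots. In 46 blocks r lay between 0.814 and 0.965, but block 43 had r = 0.149 and block 45 r = 0.0827. When array 1 was read 1 column to the left in these blocks, r was 0.924 and 0.855. In both, the listed value of a probe on array 1 is therefore that of the next column. One of the tup11 spots lies in block 45, and the spots of the other 5 genes lie outside both blocks.

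**Figure D1:**
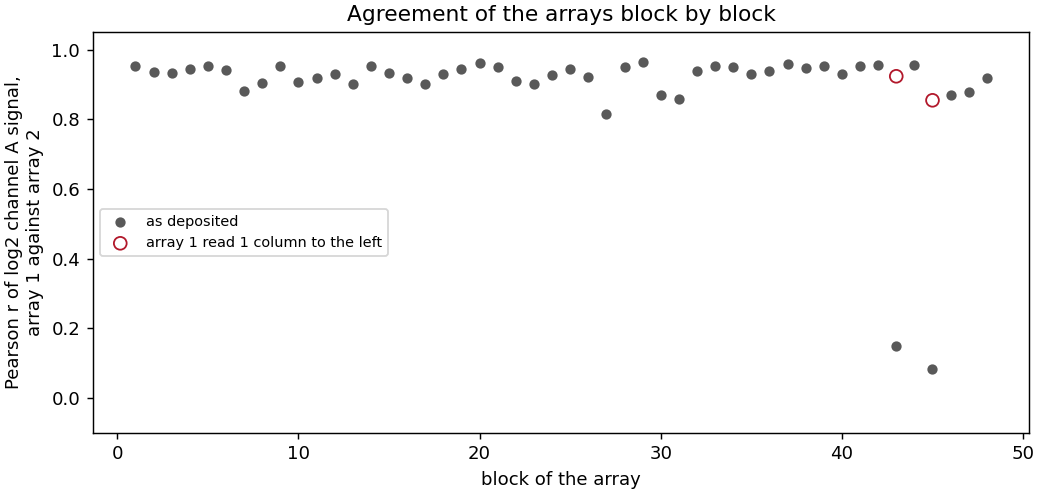
Pearson r across the spots of each block between the log2 channel A signals of array 1 and array 2 (vertical axis), by block number (horizontal axis). Filled points are the values as deposited and open circles are blocks 43 and 45 with array 1 read 1 column to the left. Blocks 43 and 45 lie at 0.149 and 0.0827 as deposited and at 0.924 and 0.855 when shifted.

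For ssn6, channel B was the brighter channel on every spot. On array 1 the first spot had a signal of 1763632 in channel B and 286160 in channel A, a 6.16-fold ratio, and the second had 2195693 in channel B and 271014 in channel A, an 8.10-fold ratio. On array 2 the first spot had 3775507 in channel B and 426313 in channel A, an 8.86-fold ratio, and the second had 2909881 in channel B and 350973 in channel A, an 8.29-fold ratio. The channels did not overlap on either array, and the lowest channel B signal was above the highest channel A signal of both arrays. The deposited saturation factor was 1 on every ssn6 spot, its value on unsaturated spots, and the highest channel B signal of any spot on array 2 was 4139436. On array 1 each ssn6 spot carried the letter flag X in one channel, where most spots carry C, and with spots flagged C alone array 1 gave no value for ssn6. Channel A was at least 19.0 times the limit of the negative spots, so the transcript was measured in both channels. The arrays measure total signal at the probe, and plasmid and chromosomal ssn6 transcripts cannot be told apart.

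**Figure D2:**
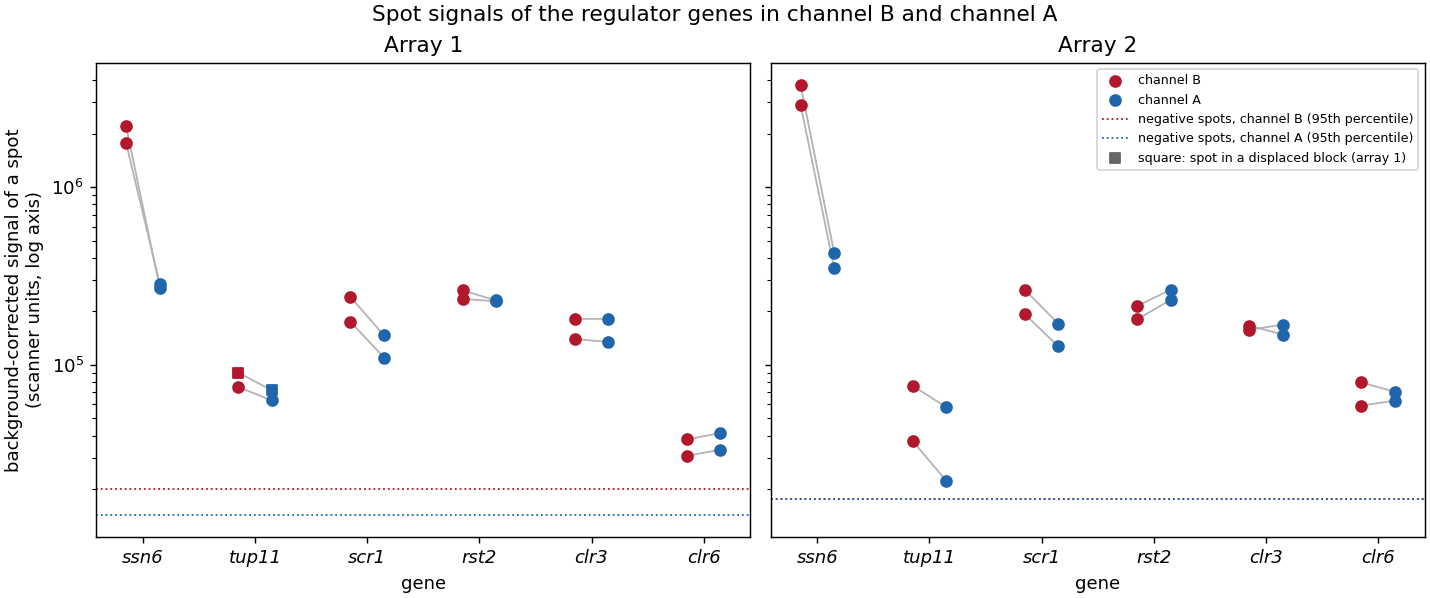
Background-corrected signal of each spot (scanner units, log axis) in channel B (left point of each pair) and channel A (right point) for the 6 genes with a probe, on array 1 (left panel) and array 2 (right panel). Lines join the channels of a spot, the dotted lines are the 95th percentile of the negative spots, and squares mark the tup11 spot in the displaced block 45. The ssn6 pairs are 6.16-fold to 8.86-fold apart and the pairs of the other genes lie close together.

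After loess, which removes the trend of the ratio with brightness within an array, the log2 ratios of the ssn6 spots were 1.74 and 2.08 on array 1 and 2.18 and 2.17 on array 2. The spots of array 2 differed by less than those of array 1. The mean over the arrays was 2.04 ± 0.19 (SD, n = 2), a 4.12-fold ratio with a 95% interval of 3.17-fold to 5.36-fold (limma, adjusted p = 8.84e-05). As channel B over channel A, it ranked 18th highest of 4879 genes tested, and its absolute size was above that of 98.2% of them whichever way both arrays run. With the sign of array 1 turned, the mean was 0.13. Loess lowered the ratio of the ssn6 spots by amounts from -0.88 to -0.97 on the log2 scale, as the fitted trend at their brightness lay above 0. Without a brightness correction, with median centring only, the mean was 2.73, a fold more than 1.5 times larger. Of the authors' deposited table, only the rows that matched the signal ratios were used, and these give 1 spot of ssn6 per array. In them the log2 ratio was 2.06 on array 1 and 2.52 on array 2. With those values limma gave an adjusted p of 0.0771.

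**Figure D3:**
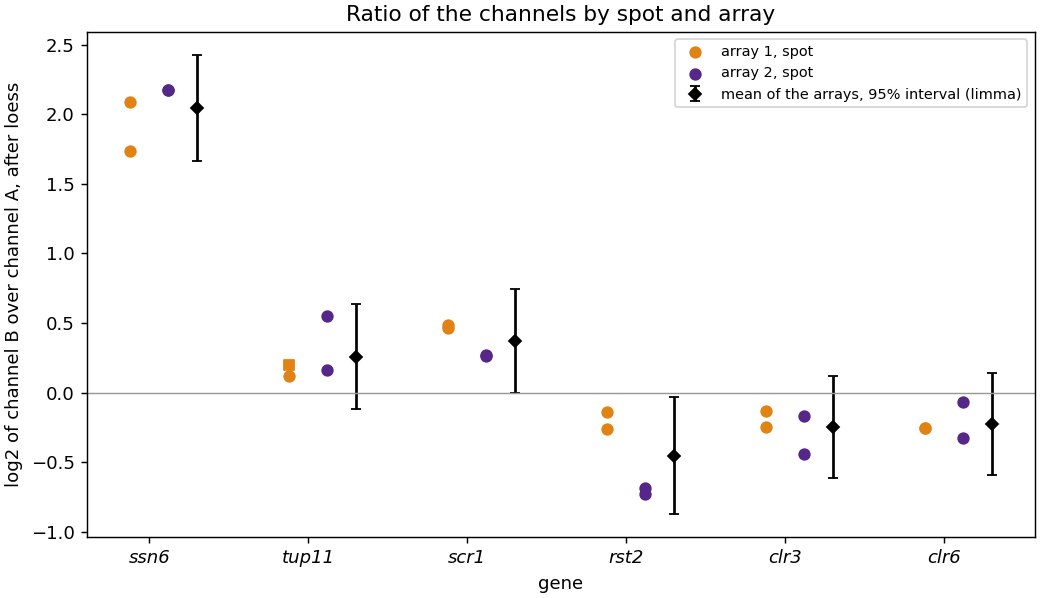
Loess-normalized log2 ratio, channel B over channel A, of each spot on array 1 (orange) and array 2 (purple), with the mean of the arrays and its 95% interval from limma (black diamonds), for the 6 genes. The ssn6 spots lie between 1.74 and 2.18, and the 95% intervals of tup11, scr1, clr3 and clr6 include 0.

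Of the 6 genes, ssn6 alone passed the adjusted p of 0.05, against 27.8% of all genes tested (11.3% higher and 16.6% lower in channel B). The share of 1 in 6 is below that background, but with 6 genes no difference in share is read from it. Without ssn6, the other 5 genes had a median absolute log2 ratio of 0.26, against 0.32 over all genes tested. Their order by mean ratio was scr1, tup11, clr6, clr3 and rst2, whereas with the sign of array 1 turned it was tup11 (0.098), clr6 (0.026), clr3 (-0.059), scr1 (-0.10) and rst2 (-0.25). Of these 5, 0 passed in limma, 1 of them (rst2) with an unadjusted p under 0.05. Neighbours in the order without the turned sign differed by no more than their spread between arrays, apart from tup11 and clr6. As listed, their difference was 0.41 on array 1 and 0.56 on array 2, but the array 1 value uses the tup11 spot in a displaced block. With the displaced blocks realigned, array 1 gave -0.06 for tup11 and -0.25 for clr6. The difference between ssn6 and each of the other 5 was at least 1.44 on either array. With 2 arrays the smallest p of an exact sign-flip test is 0.5, so these differences are given without a test.

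The tup11 gene encodes one of the WD-repeat partners of Ssn6. On array 1 its spot in block 21 had 74990 in channel B and 63057 in channel A (1.19-fold), and the spot listed in block 45 had 90366 in channel B and 71820 in channel A (1.26-fold). On array 2 its spots had 76282 in channel B and 57737 in channel A (1.32-fold), and 37302 in channel B and 22227 in channel A (1.68-fold). Channel B was brighter on each of these spots, as on 62.6% of all gene spots of array 1 and 68.9% of array 2. The last tup11 spot of array 2 stood at 1.26 times the negative limit in channel A. The mean log2 ratio after loess was 0.26 ± 0.14 (SD, n = 2; 95% interval -0.11 to 0.63) and did not pass (limma, adjusted p = 0.265).

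By the column shift, the value listed for tup11 in block 45 of array 1 is that of a neighbouring probe. Read 1 column to the left, the tup11 spot had 39860 in channel B and 43421 in channel A, and channel B was then the dimmer one (0.918-fold). With both displaced blocks realigned, the mean log2 ratio was 0.15 ± 0.30 (limma, adjusted p = 0.551). Array 1 then gave -0.06 and array 2 gave 0.36. With these blocks left out, it was 0.24 ± 0.17 (limma, adjusted p = 0.29). The sign of tup11 on array 1 thus depends on how that block is read, and its mean stayed positive and short of the threshold. Both readings were chosen after seeing the data. The ssn6 ratio was 2.04 with either reading. Per array, ssn6 exceeded tup11 by 1.75 and 1.82 on the log2 scale as listed, more than the spread of either gene between arrays.

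A probe that the files name tup1 was also on the arrays, with 2 spots on each. The gene table used here gives that name to no gene, so the probe was not assigned to tup11 or tup12 and is not counted in the set. It was added after its values were seen. On array 1 its spots had 183520 in channel B and 136193 in channel A, and 162246 in channel B and 147853 in channel A. On array 2 they had 243070 in channel B and 176436 in channel A, and 272360 in channel B and 192600 in channel A. Channel B was brighter on every spot before normalization, as it was over the median gene spot (log2 0.19 and 0.28). After loess the mean was 0.09 ± 0.03 (SD, n = 2; 95% interval -0.27 to 0.46; limma, adjusted p = 0.697).

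The glucose repressor gene scr1 had the most even spots of the set. On array 1 it had 174913 in channel B and 109786 in channel A (1.59-fold), and 241164 in channel B and 146287 in channel A (1.65-fold). On array 2 it had 264270 in channel B and 170095 in channel A (1.55-fold), and 192856 in channel B and 126905 in channel A (1.52-fold). Every spot was brighter in channel B, as were 62.6% of all gene spots on array 1 and 68.9% on array 2 before normalization. After loess the scr1 spots differed by 0.02 on array 1 and by 0.004 on array 2 on the log2 scale. The mean log2 ratio was 0.37 ± 0.15 (SD, n = 2; 95% interval -0.0028 to 0.75), with 0.48 on array 1 and 0.27 on array 2, and did not pass (limma, adjusted p = 0.123).

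The activator gene rst2 had the lowest ratio of the set. On array 1 its spots had 262240 in channel B and 230431 in channel A (1.14-fold), and 234754 in channel B and 227875 in channel A (1.03-fold). On array 2 they had 180122 in channel B and 231777 in channel A (0.777-fold), and 214218 in channel B and 264523 in channel A (0.810-fold). Before normalization channel B was therefore the brighter channel on array 1 and the dimmer one on array 2. After loess both arrays were below 0, at -0.20 and -0.70, and the mean of -0.45 ± 0.36 did not pass (limma, unadjusted p = 0.0372, adjusted p = 0.0985). The arrays differed by 0.50, more than the 0.13 and 0.04 between spots of an array, and array 2 contributed most of the mean. The repressor scr1 exceeded the activator rst2 by 0.68 on array 1 and by 0.97 on array 2.

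The histone deacetylase genes lay slightly below 0 on both arrays. For clr3, whose product is the deacetylase of the SHREC silencing complex, the spots of array 1 had 181437 in channel B and 181471 in channel A, and 139741 in channel B and 134576 in channel A. Those of array 2 had 166386 in channel B and 148112 in channel A, and 157153 in channel B and 168547 in channel A. The channels overlapped on both arrays. The mean after loess was -0.25 ± 0.08 (SD, n = 2; 95% interval -0.62 to 0.12; limma, adjusted p = 0.283).

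For clr6, an essential class I deacetylase that acts in Sin3-type complexes, the spots of array 1 had 30734 in channel B and 33349 in channel A, and 38052 in channel B and 41314 in channel A. Those of array 2 had 58876 in channel B and 62918 in channel A, and 79613 in channel B and 70504 in channel A. Channel B was the dimmer channel on array 1, where it stood at only 1.54 and 1.91 times the limit of the negative spots. The spots of array 2 disagreed. The mean was -0.23 ± 0.04 (SD, n = 2; 95% interval -0.59 to 0.14; limma, adjusted p = 0.32). The difference between clr3 and clr6 was 0.06 on array 1 and -0.11 on array 2. Without any centring the array means of clr3 were 0.03 and 0.03 and those of clr6 -0.12 and 0.04. With median centring alone they were -0.16 and -0.24 for clr3 and -0.30 and -0.24 for clr6. The negative values of clr3 on both arrays and of clr6 on array 2 thus appeared once the array median was removed, also without loess.

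**Figure D4:**
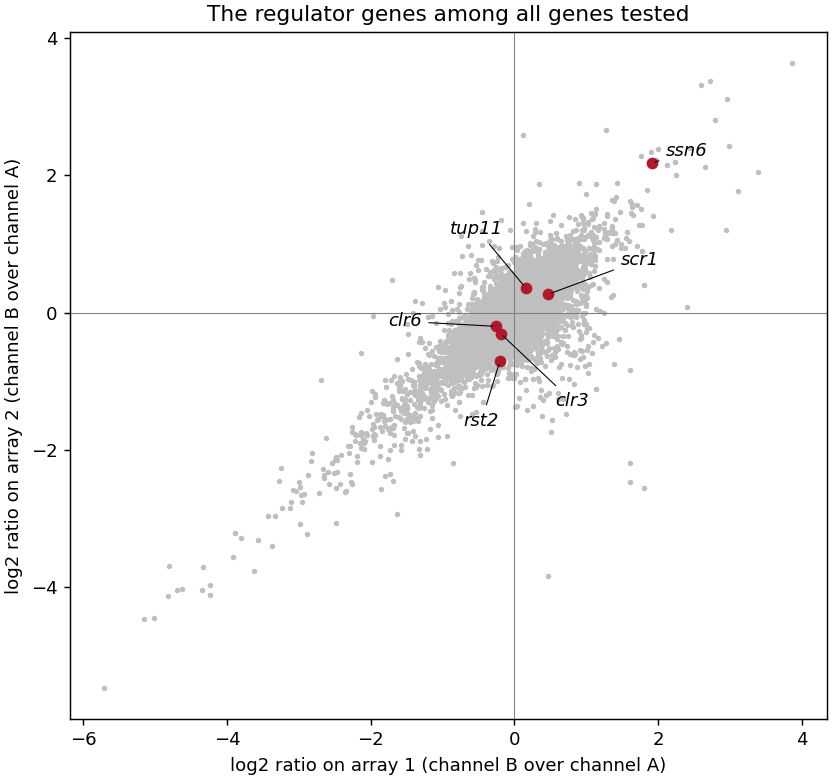
Loess-normalized log2 ratio, channel B over channel A, on array 1 (horizontal axis) and array 2 (vertical axis) for the 4879 genes tested (grey) and the 6 genes of the set (red, named). The ssn6 point lies at 1.91 and 2.17 near the upper end of the cloud, and the other 5 lie in its centre.

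The 5 genes whose pair of array ratios lay nearest to that of ssn6, by Euclidean distance over the 2 arrays, were SPAC11D3.18c, pdc101, SPAC750.01, gcv3 and SPAC977.14c, at distances from 0.07 to 0.22. The pyruvate decarboxylase gene pdc101 had log2 ratios of 1.91 and 2.34, and all 4 of its spots held saturated pixels. SPAC11D3.18c had 1.97 and 2.22, and the glycine cleavage gene gcv3 averaged 2.19 ± 0.27 (SD, n = 2). SPAC750.01 averaged 2.02 ± 0.36 and SPAC977.14c 2.14 ± 0.01. With 2 arrays, likeness means only that the ratios were of the same size.

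The genes next to ssn6 on chromosome II, taken by position after the other values were seen, were rfc1 and rgp1 on one side and mri1 and rsm10 on the other. None overlaps ssn6 in the gene table. The mean log2 ratio was 0.13 ± 0.14 for rfc1, a replication factor C gene, 0.10 ± 0.16 for rgp1 and 0.07 ± 0.38 for rsm10, and these did not pass (limma, adjusted p from 0.57 to 0.799). The immediate neighbour mri1, a methionine salvage gene, was 1.74-fold higher in channel B, at 0.80 ± 0.04 (limma, adjusted p = 0.00732). Its log2 ratio was 0.83 for array 1 and 0.77 for array 2. With the rows used of the authors' deposited table, limma gave it an adjusted p of 0.0786. Over all genes tested, 11.3% were higher in channel B.

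The genes around these regulators were counted in 5 lists. Glucose and cAMP signalling includes protein kinase A, which holds Rst2 in check in glucose, though not every gene listed acts that way. Of its 17 listed genes, 1 was higher in channel B, 5 were lower and 11 missed the threshold. The median log2 ratio was -0.36, against 0.01 over all genes tested, and 35.3% were called, against 27.8%. Lower were pka1, the catalytic subunit of protein kinase A (-0.70 ± 0.18), its regulatory subunit gene cgs1 (-0.65 ± 0.25), the cAMP phosphodiesterase gene cgs2 (-0.72 ± 0.37), the kinase gene sck2 (-0.69 ± 0.07) and git1, needed for adenylate cyclase activation (-0.55 ± 0.23), with limma's adjusted p from 0.0147 to 0.0424. They include both the kinase and genes that restrain it. The higher gene was git10 (2.80 ± 0.01; limma, adjusted p = 1.63e-05), which is the Hsp90 chaperone gene and had 1 spot with saturated pixels. The adenylate cyclase gene cyr1 had 0.14 ± 0.06, and 1 of the displaced blocks holds a spot of it.

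Among 12 probes of 11 genes of other DNA-binding regulators, 1 was higher in channel B, 8 were lower and 3 missed the threshold, and the median log2 ratio was -0.56. The share called was 75%, against 27.8% over all genes tested, of which 16.6% were lower. Lowest were pcr1 (-1.94 ± 0.27; limma, adjusted p = 0.000142) and hsr1 (-1.35 ± 0.35; limma, adjusted p = 0.00112). The iron repressor gene fep1, whose product works with Tup11, had -0.93 ± 0.23 (limma, adjusted p = 0.00491), and atf1, the partner of pcr1 in a stress-responsive bZIP factor, had -0.83 ± 0.05 (limma, adjusted p = 0.00621). Both subunits of that factor were thus lower in channel B. The CCAAT-binding genes php2 (-0.58 ± 0.15) and php5 (-0.63 ± 0.08 and -0.55 ± 0.004 on its separate probes) were lower, whereas php4, a negative regulatory subunit of that complex in low iron, was higher at 0.50 ± 0.06 (limma, adjusted p = 0.0491). The homeobox gene phx1 had -0.50 ± 0.04 (limma, adjusted p = 0.0478), so it and php4 were close to the threshold.

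Of 27 genes of histone deacetylase complexes, without clr3 and clr6, 2 were higher in channel B, 3 were lower and 22 missed the threshold, and the median log2 ratio was 0.02. Lower were the sirtuin gene hst2 (-1.34 ± 0.29; limma, adjusted p = 0.000925), cti6 of a Clr6 complex (-1.15 ± 0.05) and the Sin3 homologue gene pst1 (-0.78 ± 0.30). Higher were the silencing deacetylase gene sir2 (0.67 ± 0.06) and cph1 (0.62 ± 0.05). The 18.5% called is below the 27.8% over all genes. Of 20 genes of coactivators, remodellers and the Mediator kinase module, 0 were higher in channel B (limma), 2 were lower and 18 missed the threshold, and the median log2 ratio was 0.10. The share called was 10%, against 27.8% over all genes tested. The lower ones were the histone acetyltransferase gene gcn5 (-1.01 ± 0.20; limma, adjusted p = 0.00303) and med13 of Mediator (-0.54 ± 0.02; limma, adjusted p = 0.0366). The arrays were far apart for ssr1 of the SWI/SNF and RSC remodellers (0.21 ± 0.59).

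Of 12 genes listed as lying under these regulators, 3 were higher in channel B, 6 were lower and 3 missed the threshold, and the median log2 ratio was -0.60. The share called was 75%, against 27.8% over all genes tested (11.3% higher and 16.6% lower). The glucose-repressed invertase gene inv1 was lowest, at -4.80 ± 0.49 (27.9-fold higher in channel A; limma, adjusted p = 5.55e-06). The glycerol dehydrogenase gene gld1 had -2.46 ± 0.05 (limma, adjusted p = 3.15e-05) and the cation ATPase gene cta3, a Tup11 and Tup12 target, -1.67 ± 0.02 (limma, adjusted p = 0.0002). Lower too were the siderophore synthesis gene sib1 (-1.46 ± 0.34) and the Rst2-activated genes ste11 (-1.24 ± 0.02) and fbp1 (-0.91 ± 0.24). Of the iron uptake genes in the list, str1 (1.51 ± 0.33; limma, adjusted p = 0.000589), str3 and frp1 were higher. The channel A signal of str3 was not well above background on either array and that of frp1 on 1 array, so their sizes are not given here. The other iron uptake genes did not pass, with str2 at 0.32 ± 0.26, fip1, which has a spot in a displaced block, at -0.03 ± 0.35, and fio1 at -0.29 ± 1.37. The lists were not chosen independently of these data, and their counts are descriptions.

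**Figure D5:**
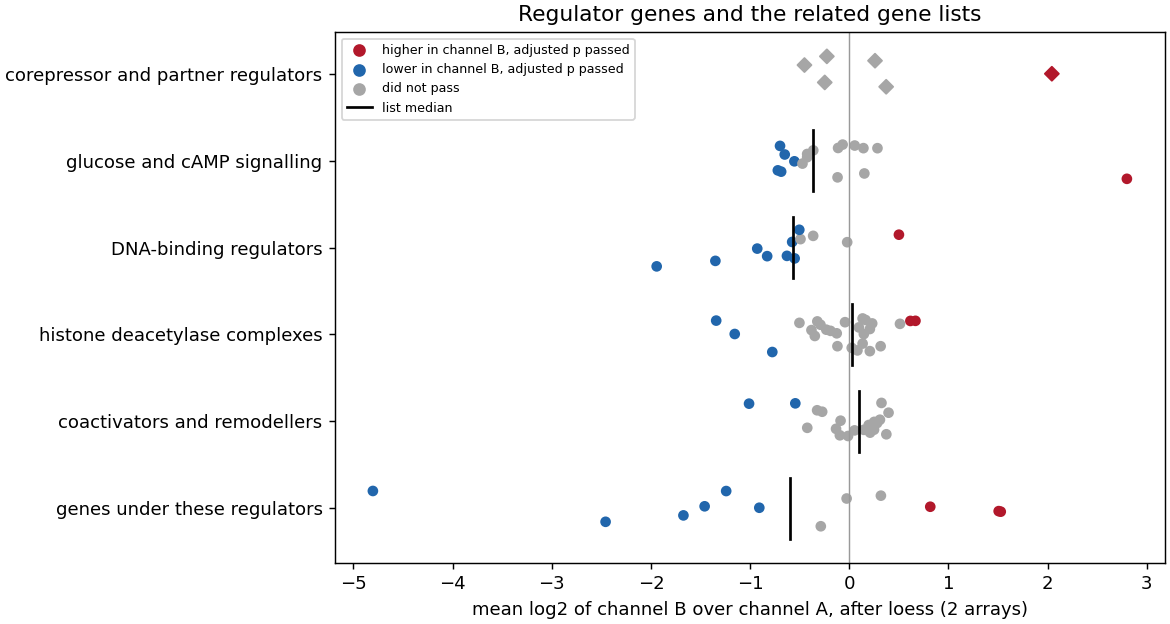
Mean loess-normalized log2 ratio, channel B over channel A (horizontal axis, 2 arrays) for the 6 genes of the set (diamonds, top row) and the genes of the 5 related lists (points, other rows, scattered vertically for view). Red and blue mark genes higher and lower in channel B that passed the adjusted p, grey those that did not, and black bars the list medians, which run from -0.60 to 0.10.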

How the data were processed

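Total RNA of both cultures was hybridised to 2 arrays of 2 colours. The deposited scanner files hold, per the file headers, a background-corrected intensity per channel, the background intensity, a linear ratio by mean and median pixel (channel A over B, the inverse of the ratios given here), a saturation factor as a fraction and letter flags. No source used here gives the scanner software. The authors' deposited value table holds log10 values, lowess-normalized per the series' design text. Its first 5760 of 11520 rows matched log10 of the B to A signal ratio (r = 0.913 and 0.939), and the others did not (r = 0.0355 and 0.0566) and were left out, as were values at the floor of -2.

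An offset of 50 was added to the corrected intensities, and log2 ratios of channel B over channel A were normalized by loess (span 0.3, controls at weight 0) within each array. Spots of a probe were averaged. Genes below the 95th percentile of negative spots in both channels of either array were left out, leaving 4879 of 4979 probe names, all 6 genes of the set among them. Means were tested against 0 with limma 3.58.1 (R 4.3.3), two-sided, Benjamini-Hochberg over all genes, threshold 0.05. Its p-values and intervals use a variance moderated over all genes tested, whereas each SD given is the gene's own. The limma step was tested on simulated data. The array number limits the precision. Of the names, 4793 matched the ASM294v3 gene table.

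The members and lists were chosen with earlier results of these data known. Named are the set, the 5 genes nearest to ssn6, and from each list the 4 with the largest smaller absolute array ratio among those that passed. The other list genes were named after their values were seen.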

Additional observations from a re-analysis of the deposited data

How the results depend on the processing

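No paired analysis was possible because the arrays form 1 group with no replicate numbers shared with another, and each ratio already sets the cultures against each other within an array. The authors' deposited values were used only in the rows that matched the signal ratios, which leaves 1 spot per probe. With these, ssn6 was 2.29 (limma, adjusted p = 0.0771). Of the set, of every list and over all genes, 0 genes passed (1784 at an unadjusted p under 0.05 in limma). Whether leaving out the other rows accounts for this was not tested. Over the settings other than turned signs, the ssn6 value lay between 1.77 and 2.73. The sign of array 1 was also turned, as the labelled dyes would require if channel A held the same dye throughout. Then ssn6 was 0.13 and again 0 genes passed in limma (5 at an unadjusted p under 0.05). Each mean then takes the sign of the array with the larger absolute ratio, so a reversed sign is no measure of reliability. The sign of the mean reversed for scr1 (-0.10), clr6 (0.026), git1 (0.16), pka1 (0.13), cgs1 (0.18), sck2 (0.051), fep1 (0.16), atf1 (0.035), php4 (-0.041), the php5 probes (0.053 and 0.0026), hsr1 (0.25), pst1 (0.21), sir2 (-0.045), hst2 (0.20), gcn5 (0.14), fbp1 (0.17), inv1 (0.35), ste11 (0.014), cta3 (0.018), str1 (-0.23), str3 (-0.26, with channel A not well above background), sib1 (0.24), rfc1 (-0.10), rgp1 (-0.11) and mri1 (-0.028). The array values of these genes then have opposite signs and cancel at least in part, except for rgp1, which was below 0 on both arrays.

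With spots flagged C alone, 0 genes of the set passed in limma, as ssn6 had no spot on array 1. The count of higher genes was 2 for glucose and cAMP signalling with median centring, 1 for the deacetylase complexes with print-tip loess, and 0 for the DNA-binding regulators with normexp, without the filter on dim genes or with median pixel ratios, where php4 missed the threshold; the cause was not tested. Of the lower genes, phx1 missed it in the same settings (limma, adjusted p from 0.0513 to 0.0531), a php5 probe with median centring (0.0564) and git1 with median pixel ratios (0.0541). With 1 array left out, rgp1 ranged from -0.0085 to 0.21 and rsm10 from -0.20 to 0.34, while ssn6 ranged from 1.91 to 2.17. The 2 arrays and their spot noise limit the precision.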
